A study of Homo sapiens with 12 samples.

Results

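The place of each gene's RNA along a polysome gradient was compared between HEK293T cells treated with a PRMT1 inhibitor and cells treated with DMSO, for 2594 genes. HEK293T is an established human cell line derived from embryonic kidney. In polysome profiling, a cell lysate is spun through a sucrose gradient, here 10 to 50% per the labels, so that mRNAs separate by how many ribosomes they carry. The groups used were cells treated with the PRMT1 inhibitor and cells treated with DMSO, the solvent, each in fractions of 1, 2 and 3 or more ribosomes per mRNA, and a PRMT4 inhibitor gave the same 3 fractions. Every group was 1 library, so that 12 libraries, inputs included, covered 3 treatments. No difference below could be set against a spread between cultures, no test was run, and every value is a size only. The labels do not name the compounds, their doses or the length of treatment.

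The gradient shift of a gene was its log2 ratio of FPKM (fragments normalised to transcript length and sequencing depth) with 3 or more ribosomes to FPKM with 1 ribosome under the PRMT1 inhibitor, minus the same ratio in DMSO, with 1 FPKM added to each value. A shift above 0 thus lies toward 3 or more ribosomes under the inhibitor, and a shift below 0 toward 1 ribosome. It was taken for the 2594 of 15534 genes in the table whose mean over the 12 libraries was at least 20 FPKM, and was centred on their median, which removed -0.04. The genes nearest to that minimum were AZIN1, EXOSC9 and EPOR just inside it, at means of 20.0025, 20.0075 and 20.01 FPKM, and GAD1, EXOSC5 and OVOL3 just outside it, at 19.9842, 19.9717 and 19.9633 FPKM.

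PRMT1 places most of the asymmetric dimethylarginine of human cells, often on glycine- and arginine-rich stretches of RNA-binding proteins and on histone H4, and PRMT4, also called CARM1, modifies other substrates, among them histone H3. An mRNA that is initiated more often carries more ribosomes and sediments further, although a short coding sequence has room for fewer. Replication-dependent histone mRNAs, which are made in S phase, carry no poly(A) tail and end in a conserved stem-loop bound by SLBP, which takes part in their translation and decay.

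The 6 fraction libraries of the PRMT1 inhibitor and DMSO held an estimated 495 to 563 counted fragments, in units of 1000, read from the steps in the deposited FPKM values. For the genes described here the median of the lowest estimate among the 4 libraries was 31.8 fragments, and the median counting error of a shift was 0.38 (log2). The kit keeps the strand of the RNA per the labels, while the strand on which fragments were counted is not stated. SH3D19 was listed at a mean of 24891 FPKM, while RPS3A, the ribosomal protein gene whose exons overlap it from the other strand, was listed at 68.0 FPKM. Of the annotated genes analysed, 67.7% overlapped an exon on the opposite strand, against 39.3% of those in the whole table. A value is therefore what was listed under a gene's name, which strand it came from was not tested, and opposite-strand partners are named below. Of the cell line markers, KRT8 (opposite KRT18) and VIM (opposite VIM-AS1) made up most of a summed 682 to 2237 FPKM, and LIN28B was low at a mean of 1.25 FPKM. Of 26 markers of other cell types 10 were measured, at a summed 197 to 585 FPKM, with GFAP (opposite CCDC103) among the highest, and COL1A1 and COL3A1 were at 0 in all 6 libraries.

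Shifts of at least 2-fold were listed for 765 genes (29.5%), of which 352 (13.6%) lay toward 3 or more ribosomes and 413 (15.9%) toward 1 ribosome. At least 4-fold were 88 toward 3 or more and 131 toward 1. The PRMT4 inhibitor was also set against the same DMSO libraries. By that comparison the 352 genes had a median shift of 0.80, beside 1.43 for the PRMT1 inhibitor. The 413 had -1.02, beside -1.61. Both shifts of a gene use the same 2 DMSO values, and how much of a shift belongs to 1 inhibitor was not tested. The quartiles of all shifts were -0.62 and 0.54 and their SD was 1.30 (log2). A library of the 4 was at 0 for 18 of the 352 genes and for 28 of the 413. Of 596 of these genes with a counting error, 531 had a shift beyond 1.96 times that error, which covers counting only and not the spread between cultures. The genes were called by the size of the same shift, and the median error over all genes with one was 0.38. Many therefore pass by that choice alone, and the count is a description. The other called genes had too few estimated fragments or no annotated length for an error. The difference between the PRMT1 inhibitor and DMSO with 2 ribosomes, which the shift does not use, lay between the differences at both ends for 490 of the 765 (64.1%), against 41.2% of all genes analysed. Genes with far-apart ends leave a wider gap in which the middle can fall, so the first share is read as a description.

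Each shift was split over its 4 libraries, each centred on its own median and set against the middle value of the 3 treatments in its fraction, and a library was said to carry a shift where its part came to at least 50% of it. Of the 352 genes shifted toward 3 or more ribosomes, 97 (27.6%) were carried by the PRMT1 inhibitor library with 1 ribosome, 49 by that with 3 or more, 79 by the DMSO library with 3 or more and 61 by the DMSO library with 1 ribosome. Of the 413 shifted toward 1 ribosome, 90 were carried by the PRMT1 inhibitor library with 1 ribosome, 82 by that with 3 or more, 124 (30.0%) by the DMSO library with 1 ribosome and 47 by the DMSO library with 3 or more. No single library carried the other 66 and 70. More of the called genes thus rested on a library with 1 ribosome than on one with 3 or more in both directions.

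**Figure D1:**
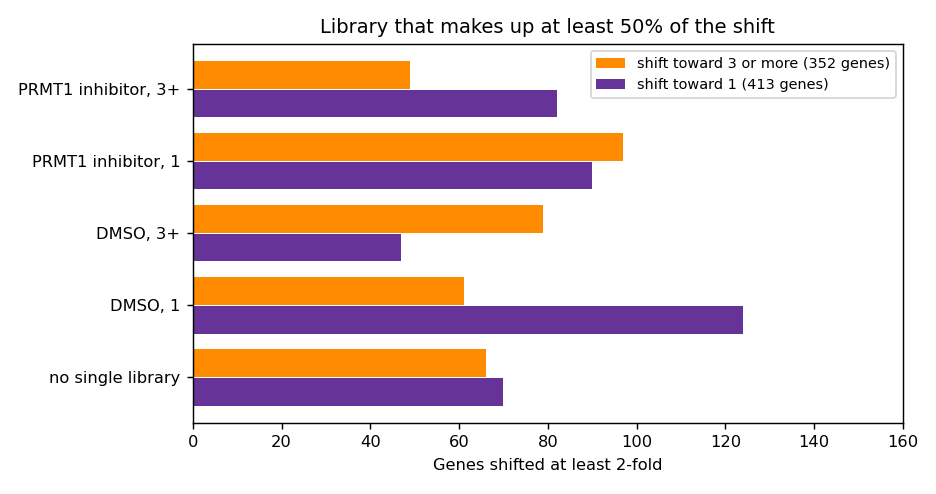
Number of genes shifted at least 2-fold (x axis, from 0) by the library that carried the shift (y axis), for the 352 genes shifted toward 3 or more ribosomes and the 413 shifted toward 1. Among genes shifted toward 1 ribosome the DMSO library with 1 ribosome has the longest bar, at 124 genes, and among those shifted toward 3 or more it is the PRMT1 inhibitor library with 1 ribosome, at 97.

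Of the 27 gene lists with at least 5 members analysed, the one with the median furthest from 0 was the replication-dependent histones, which encode the H1, H2A, H2B, H3 and H4 proteins that package newly made DNA. Of 52 such genes measured 39 were analysed, and their median shift was -1.10, against 0.01 over the other 2555 genes. It was -0.47 with 2 ribosomes as the heavy end, -0.53 with 2 ribosomes as the light end and -0.72 against the PRMT4 inhibitor in place of DMSO. Of the 39, 20 (51.3%) were shifted at least 2-fold toward 1 ribosome and 6 (15.4%) toward 3 or more, against 15.4% and 13.5% of the other genes, and 31 lay below 0. With 2 ribosomes at either end, 9 of the 39 lay at least 2-fold toward 1 ribosome. The copies H3C14 and H3C15, and HIST2H2AA3 and HIST2H2AA4, cannot be counted apart, and with each pair summed 19 of 37 lay toward 1 ribosome and 5 toward 3 or more. The list was chosen with earlier results of these data known, and its members share sequence and depth. Of the 39, 31 overlapped no opposite-strand exon, and their median was also -1.10.

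Summed over the 52 genes, histone FPKM with 1, 2 and 3 or more ribosomes was 14703, 17620 and 15383 under the PRMT1 inhibitor, against 7113, 14397 and 17578 in DMSO. The sum was level along the gradient under the inhibitor and climbed with ribosome number in DMSO. The ratio of 3 or more ribosomes to 1 was 1.05 under the PRMT1 inhibitor and 2.47 in DMSO. With 1 ribosome the sum was 2.07-fold that of DMSO, with 2 ribosomes 1.22-fold and with 3 or more 0.875-fold, so that the light end differed most. Under the PRMT4 inhibitor the sums were 6780, 9574 and 9977 FPKM, a ratio of 1.47, with a value at the light end near that of DMSO and a lower one at the heavy end. Both inhibitors are set against the same DMSO libraries. In a bulk lysate, a change in histone RNA per cell and a change in the share of cells in S phase cannot be told apart.

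**Figure D2:**
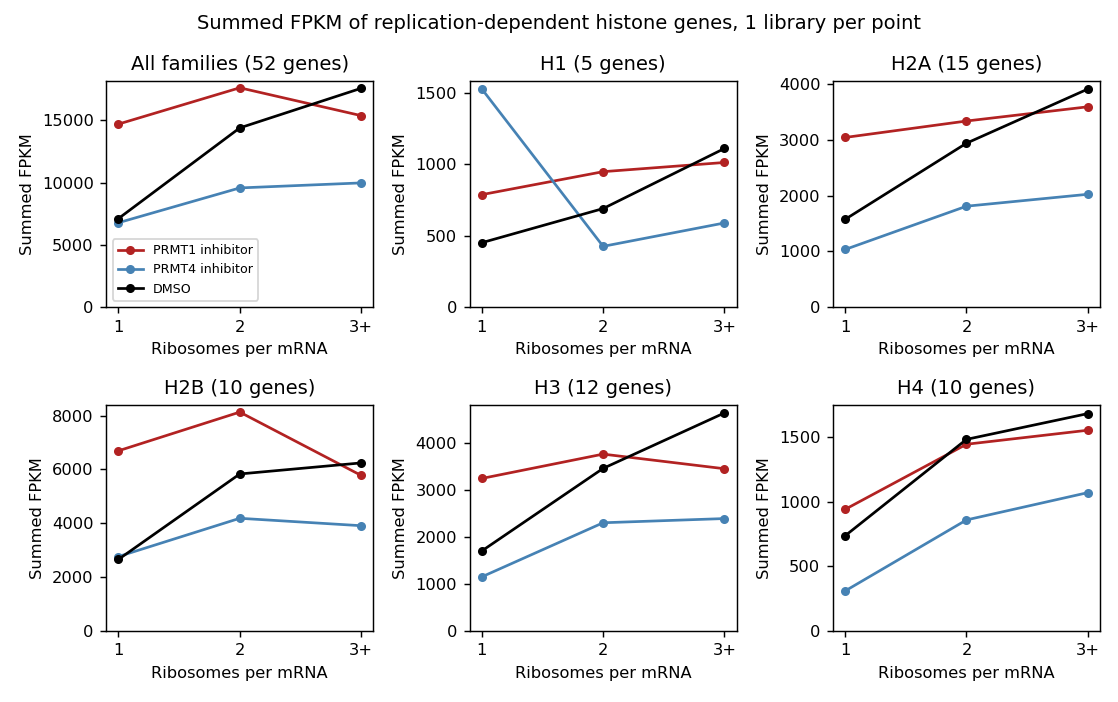
Summed FPKM (y axis, from 0) of the replication-dependent histone genes in the table against ribosomes per mRNA (x axis), for all families and each family, with 1 line per treatment and 1 library per point. With 1 ribosome the PRMT1 inhibitor stands at 14703 FPKM over all families and DMSO at 7113, while with 3 or more ribosomes they stand at 15383 and 17578.

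H2B genes were shifted most evenly, with 8 of 9 at least 2-fold toward 1 ribosome, against 15.9% of all genes analysed, and a median of -1.59. H2BC15 (ENSG00000233822), the histone gene with the highest mean and opposite H2AC15, was listed at 3319, 3697 and 3462 FPKM with 1, 2 and 3 or more ribosomes under the PRMT1 inhibitor, against 1344, 2401 and 3122 in DMSO. It was higher under the inhibitor in all 3 fractions and most so with 1 ribosome, which gave a shift of -1.12 ± 0.04 (counting error), all of it from the PRMT1 inhibitor library with 1 ribosome. H2BC11 (ENSG00000124635), with no opposite-strand exon, was listed at 812, 976 and 319.7 FPKM, against 237, 873 and 693 in DMSO. Here the light end was higher and the heavy end lower under the inhibitor, and the shift was -2.85 ± 0.22, of which the PRMT1 inhibitor library with 1 ribosome made up 54.3%. H2BC5 (ENSG00000158373) was listed at 80.9, 133 and 82.2 FPKM, against 21.8, 40.6 and 156 in DMSO. Its shift of -2.72 ± 0.67 was carried by the DMSO library with 1 ribosome, the lowest of the 3 treatments there. H2BC12, H2BC17, H2BC18 (opposite FCGR1A), H2BC4 and H2BC21 had shifts of -1.69, -1.45, -2.14, -1.58 and -1.59, all carried by the PRMT1 inhibitor library with 1 ribosome except H2BC21, carried by the DMSO one. H2BC13 was the exception among H2B genes, with a shift of 0.96.

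Of 11 H2A genes, 5 were shifted at least 2-fold toward 1 ribosome and 2 toward 3 or more, against 15.9% and 13.6% of all genes analysed. The H2A median was -0.98. H2AC17 (ENSG00000278677) was listed at 312, 254 and 133 FPKM with 1, 2 and 3 or more ribosomes under the PRMT1 inhibitor, against 98.4, 231 and 283 in DMSO. The order of its fractions was opposite under both treatments, and its shift of -2.71 ± 0.62 was carried by the PRMT1 inhibitor library with 1 ribosome. H2AC18 and H2AC19, listed as HIST2H2AA3 and HIST2H2AA4, are near-identical copies between which fragments were split unevenly from library to library. HIST2H2AA3 was listed at 0.01 and 0 FPKM at both ends under the PRMT1 inhibitor, against 705 and 0 FPKM in DMSO, and HIST2H2AA4 at 1513 and 1447 FPKM, against 92.5 and 1709 in DMSO. Values of either copy alone are uncertain. Summed, the pair was listed at 1513, 1447 and 1447 FPKM, against 798, 1456 and 1709 in DMSO, a shift of -1.12, unlike that of either copy. With the pair summed, 5 of 10 H2A genes lay at least 2-fold toward 1 ribosome and 1 toward 3 or more, with a median of -1.05. H2AC13 was listed at 103, 73.6 and 53.7 FPKM under the PRMT1 inhibitor and at 0, 84.6 and 95.0 in DMSO, so that the value of 0 in the DMSO library with 1 ribosome carries its place toward 1 ribosome.

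Of 8 H3 genes, 5 were shifted at least 2-fold toward 1 ribosome and 1 toward 3 or more, against 15.9% and 13.6% of all genes analysed. The H3 median was -1.13. H3C13 (ENSG00000183598) was listed at 1120.0, 1018 and 905 FPKM with 1, 2 and 3 or more ribosomes under the PRMT1 inhibitor, against 520.5, 1223 and 1557 in DMSO. It declined along the gradient under the inhibitor and climbed in DMSO, a shift of -1.85 ± 0.26 carried by the PRMT1 inhibitor library with 1 ribosome. H3C14 (opposite H4C14) and H3C15 (opposite H4C15) are copies with identical values in every library, 661, 872 and 829 FPKM against 375, 739.8 and 1061 in DMSO, and are 1 measurement with a shift of -1.13. Counted once, they leave 4 of 7 H3 genes toward 1 ribosome. H3C12 went the other way, at 53.6, 74.2 and 58.1 FPKM under the PRMT1 inhibitor against 64.5, 67.2 and 14.3 in DMSO, where the shift of 2.26 was carried by the PRMT1 inhibitor library with 3 or more ribosomes and the lowest estimate was 2.06 fragments.

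H4 and H1 genes had smaller median shifts than the other families, over few genes each. Of 7 H4 genes 1 lay at least 2-fold toward 1 ribosome and 2 toward 3 or more (median -0.16). Of 4 H1 genes 1 lay each way (median -0.61). Over all genes analysed the shares were 15.9% toward 1 ribosome and 13.6% toward 3 or more. H4C14 (opposite H3C14), the H4 gene with the highest mean, was listed at 388, 863 and 964 FPKM with 1, 2 and 3 or more ribosomes under the PRMT1 inhibitor, against 306, 949 and 1127 in DMSO. Both treatments climbed along the gradient, and the shift was -0.52 ± 0.15. H1-4 (ENSG00000168298) was listed at 567, 661 and 682 FPKM, against 316, 478 and 837 in DMSO. It was higher under the inhibitor with 1 and 2 ribosomes and lower with 3 or more, a shift of -1.10 ± 0.22 carried by the DMSO library with 1 ribosome, while the PRMT4 inhibitor library there stood apart at 1440.0 FPKM.

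The stem-loop at the 3′ end is what these mRNAs have in common and what the gradient shift did not use. It is therefore shown for some members with shifts of different sizes and, last, for H2AX, which is outside the list. It was searched by the pattern of the histone stem-loop on the transcript strand within 150 bases after the stop codon in GENCODE transcripts. Capitals mark the 16-base stem-loop and lower case the 5 bases on each side, 5′ to 3′.
H2BC5, chromosome 6, shift -2.72: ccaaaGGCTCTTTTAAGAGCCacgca
H2BC18, chromosome 1, shift -2.14: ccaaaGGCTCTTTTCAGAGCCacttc
H2BC4, chromosome 6, shift -1.58: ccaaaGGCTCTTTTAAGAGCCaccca
H3C14, chromosome 1, shift -1.13: caaaaGGCTCTTTTCAGAGCCaccca
H2BC15, chromosome 6, shift -1.12: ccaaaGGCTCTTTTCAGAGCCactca
H4C14, chromosome 1, shift -0.52: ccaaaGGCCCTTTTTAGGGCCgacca
H4C8, chromosome 6, shift 1.90: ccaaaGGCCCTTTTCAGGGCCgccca
H2AX, chromosome 11, shift -1.66: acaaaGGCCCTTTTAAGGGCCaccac

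The search found the element in 20 of 2526 coding genes analysed (0.792%), of which 16 were among the 39 listed replication-dependent histones. The other 4, H2AX, H2AC25, H3-4 and H4C16, also encode histones, so the list does not hold every histone gene with the element. Their shifts were -1.66, -1.55, 1.10 and 1.22. Among list members with at least 75 annotated bases after the stop codon, 16 of 17 held it, and a shorter annotated end cannot show it. Of 28 H2A, H2B and H3 members analysed the element was found in 13, and 10 of these hold the core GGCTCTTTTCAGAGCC. Of 7 H4 members it was found in 3, which hold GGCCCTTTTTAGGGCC or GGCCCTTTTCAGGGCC. The same core was found at shifts of both signs. Over the 11 genes with the core of H2BC15 the median shift was -1.13, with H2BC13, not shown above, at 0.96. The 11 hold both H3C14 and H3C15, whose values are identical, and the uncertain copies HIST2H2AA3 and HIST2H2AA4. Over the 3 genes with the core of H2BC5 the median shift was -1.58, with H3-4 at 1.10. A match is a description of the annotated letters, and the search took no account of binding.

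The light end carried most of the histone shift. With 1 ribosome, 30 of the 39 histones were higher under the PRMT1 inhibitor and the median difference was 0.80 (log2). Of the 39, 15 were at least 2-fold higher there (38.5%) and 3 at least 2-fold lower, where 10.9% of all genes analysed were 2-fold higher and 7.44% lower. With 2 ribosomes the median was 0.33 with 4 at least 2-fold higher (4.74% of all genes were) and none lower (4.47%), and with 3 or more it was -0.25, with 4 at least 2-fold lower (6.9% of all genes were) and 2 higher (7.29%). Of the 20 shifted at least 2-fold toward 1 ribosome, 13 were carried by the PRMT1 inhibitor library with 1 ribosome, 4 by the DMSO library with 1 ribosome and 3 by the DMSO library with 3 or more. A counting error could be given for 31 of the 39, and 16 of those shifted toward 1 ribosome lay beyond 1.96 times it. These were called by the size of the same shift, so that count is a description. The list's median shift was -0.38 for the PRMT4 inhibitor against the same DMSO libraries.

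**Figure D3:**
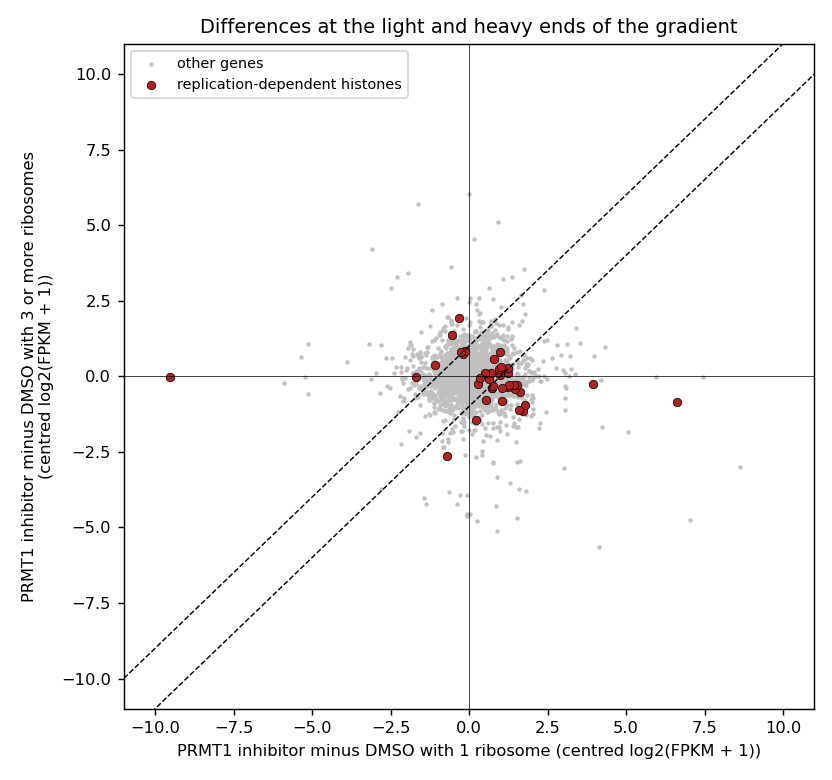
Centred log2(FPKM + 1) difference between the PRMT1 inhibitor and DMSO with 1 ribosome (x axis) and with 3 or more ribosomes (y axis), 1 point per gene analysed. The dashed lines mark a shift of 2-fold each way, and most of the 39 replication-dependent histones lie to the right, where their median with 1 ribosome is 0.80.

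Histone genes also stood out among the genes with the highest values. Of 273 genes with a mean of at least 200 FPKM, 22 (8.06%) were shifted at least 2-fold toward 1 ribosome and 4 (1.47%) toward 3 or more. Histones were 15 of the 273, and made up 11 of the 22 and 1 of the 4. The 11 hold the uncertain copy HIST2H2AA4 and both H3C14 and H3C15, and the 1 is the uncertain copy HIST2H2AA3. With copies summed, 10 of 13 histones at this level lay at least 2-fold toward 1 ribosome and none toward 3 or more. Of the other 11, NCAPD2, a condensin subunit opposite MRPL51, was listed at 337, 318 and 189 FPKM with 1, 2 and 3 or more ribosomes under the PRMT1 inhibitor, against 138, 195 and 265 in DMSO, and was named after its values were seen. Its fractions ran downward under the inhibitor and upward in DMSO, a shift of -1.72 that no single library carried. The largest part, -0.72, was that of the DMSO library with 1 ribosome. Under the PRMT4 inhibitor NCAPD2 was listed at 232, 190 and 141 FPKM, also downward, a shift of -1.76 against the same DMSO libraries. Of the other 3 shifted toward 3 or more, MED16, a Mediator subunit with no opposite-strand exon, was listed at 74.3, 236 and 564 FPKM, against 136, 301 and 411 in DMSO, and was likewise named with its values known. It climbed under both treatments and more steeply under the inhibitor, with a shift of 1.36 carried by the DMSO library with 1 ribosome.

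Histones that are made outside S phase were shifted less. Of 11 such genes measured 5 were analysed, and their median was -0.37. Against 15.9% and 13.6% of all genes analysed, 1 lay at least 2-fold toward 1 ribosome and none toward 3 or more. That 1 was H2AX, a variant that is phosphorylated at DNA breaks and that also holds the stem-loop, listed at 31.1, 53.5 and 63.7 FPKM with 1, 2 and 3 or more ribosomes under the PRMT1 inhibitor, against 10.3, 27.4 and 73.3 in DMSO. It was higher with 1 ribosome and lower with 3 or more under the inhibitor, a shift of -1.66 ± 0.62. H3-3B (opposite UNK) was listed at 419.6, 247 and 249 FPKM, against 362, 253 and 286 in DMSO, and H3-3A (opposite H3-3A-DT) at 129, 107 and 105, against 162, 86.7 and 141. Both encode the replacement histone H3.3, and their shifts were -0.37 and -0.06.

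Of the genes of DNA replication and S phase, 7 of 46 were analysed, with 3 at least 2-fold toward 1 ribosome, 2 toward 3 or more and a median of -0.47, where 15.9% and 13.6% of all genes analysed lay that far toward 1 and toward 3 or more. RRM2, a ribonucleotide reductase subunit with no opposite-strand exon, was listed at 26.1, 139.6 and 56.1 FPKM with 1, 2 and 3 or more ribosomes under the PRMT1 inhibitor, against 179, 112 and 26.2 in DMSO. Its low value with 1 ribosome under the inhibitor carried a shift of 3.85 ± 0.33 toward 3 or more, away from the histones. TYMS, thymidylate synthase opposite ENOSF1, and CDT1, a replication licensing factor, had shifts of 0.61 and -1.01. GINS3, a subunit of the replicative helicase opposite ENSG00000276131, had -1.34. The S phase genes thus lay on both sides, and whether the share of cells in S phase moved with the histone shift was not tested.

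Genes with the clearest steps were taken as those with at least 5 FPKM in all 6 libraries, no opposite-strand exon and a 2-ribosome difference between the other 2, which left 318 genes, 86 at least 2-fold toward 3 or more ribosomes and 85 toward 1. Toward 3 or more, the 10 with the largest shifts were JOSD2, COPS3, RRM2, ASB18, EEF2, RNF114, RFTN1, UBE2E1, CHRNA7 and PRSS48. JOSD2, a deubiquitinase, was listed at 9.25, 108 and 105 FPKM with 1, 2 and 3 or more ribosomes under the PRMT1 inhibitor, against 144, 89.1 and 73.6 in DMSO. A single low value, that with 1 ribosome under the inhibitor at an estimated 3.92 fragments, carried its shift of 4.36. EEF2, the translocase of translation elongation, was listed at 232, 103 and 229 FPKM, against 329, 102 and 62.0 in DMSO. It was lower with 1 ribosome and higher with 3 or more under the inhibitor, a shift of 2.41 ± 0.19. The DMSO library with 3 or more ribosomes carried it and also lay below the 188 FPKM of the PRMT4 inhibitor. CHRNA7, a nicotinic receptor subunit, was listed at 27.6, 42.3 and 112 FPKM, against 121, 89.8 and 98.8 in DMSO. It was low with 1 and 2 ribosomes under the inhibitor, and its shift was 2.31 ± 0.36.

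RNF114, a ubiquitin ligase, was listed at 18.7, 22.2 and 73.2 FPKM under the PRMT1 inhibitor, against 54.6, 48.5 and 40.4 in DMSO. It climbed under the inhibitor and declined in DMSO, a shift of 2.38 ± 0.42 carried by the DMSO library with 1 ribosome. UBE2E1, a ubiquitin-conjugating enzyme, was listed at 27.6, 48.2 and 48.8 FPKM, against 60.3, 21.9 and 20.9 in DMSO, and RFTN1, a lipid raft protein, at 29.3, 51.6 and 33.5 FPKM, against 50.5, 21.5 and 10.6 in DMSO. For both, the inhibitor library was the lower one with 1 ribosome and the higher one in the other fractions, and no single library carried the shifts of 2.32 and 2.38. COPS3, a subunit of the COP9 signalosome, ASB18, an ankyrin repeat protein, and PRSS48, a serine protease, had shifts of 4.26, 3.06 and 2.30, from libraries with as few as 5.03 estimated fragments.

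Toward 1 ribosome, the 10 were PHGDH, CXXC1, CKS2, POP7, EIF3B, H2BC11, PGLYRP1, H2BC5, H2AC17 and FNDC9, of which 3 are the histone genes above. PHGDH, the first enzyme of serine synthesis, was listed at 30.1, 30.8 and 10.6 FPKM with 1, 2 and 3 or more ribosomes under the PRMT1 inhibitor, against 9.49, 27.6 and 50.6 in DMSO. It declined to the heavy end under the inhibitor and climbed in DMSO, a shift of -3.69 ± 0.59 that no single library carried. The DMSO libraries with 3 or more and with 1 ribosome gave parts of -1.49 and -1.46. Those of the PRMT1 inhibitor gave -0.67 and -0.04. Under the PRMT4 inhibitor PHGDH was listed at 28.4, 12.5 and 18.6 FPKM, a shift of -3.00 against the same DMSO libraries. EIF3B, a core subunit of initiation factor 3, was listed at 33.2, 24.5 and 37.5 FPKM, against 7.13, 21.7 and 67.7 in DMSO. It climbed steeply in DMSO and hardly under the inhibitor, a shift of -2.87 ± 0.49 carried by the PRMT1 inhibitor library with 1 ribosome. CXXC1, a subunit of histone H3 methyltransferase complexes, was listed at 63.3, 19.6 and 11.1 FPKM, against 6.17, 19.1 and 14.5 in DMSO. The light end alone set it apart, with a shift of -3.48 carried by the DMSO library with 1 ribosome, where an estimated 6.91 fragments were counted.

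CKS2, a partner of cyclin-dependent kinases, was listed at 64.8, 38.1 and 8.20 FPKM under the PRMT1 inhibitor, against 20.4, 53.2 and 28.2 in DMSO, and POP7, a subunit of RNase P, at 48.0, 54.6 and 22.8 FPKM, against 12.2, 27.2 and 55.7 in DMSO. Each was higher with 1 ribosome and lower with 3 or more under the inhibitor, and no single library carried the shifts of -3.25 and -3.11. The lowest estimate for CKS2 was 2.02 fragments, too few for a counting error. For POP7 the lowest was 5.01 fragments and the counting error was 0.87. PGLYRP1, a peptidoglycan-binding protein, and FNDC9, a fibronectin type III domain protein, had shifts of -2.74 and -2.68 at means of 27.2 and 24.5 FPKM. PGLYRP1 had as few as 3.02 estimated fragments and no counting error, and FNDC9 had as few as 13.5 and an error of 0.59.

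**Figure D4:**
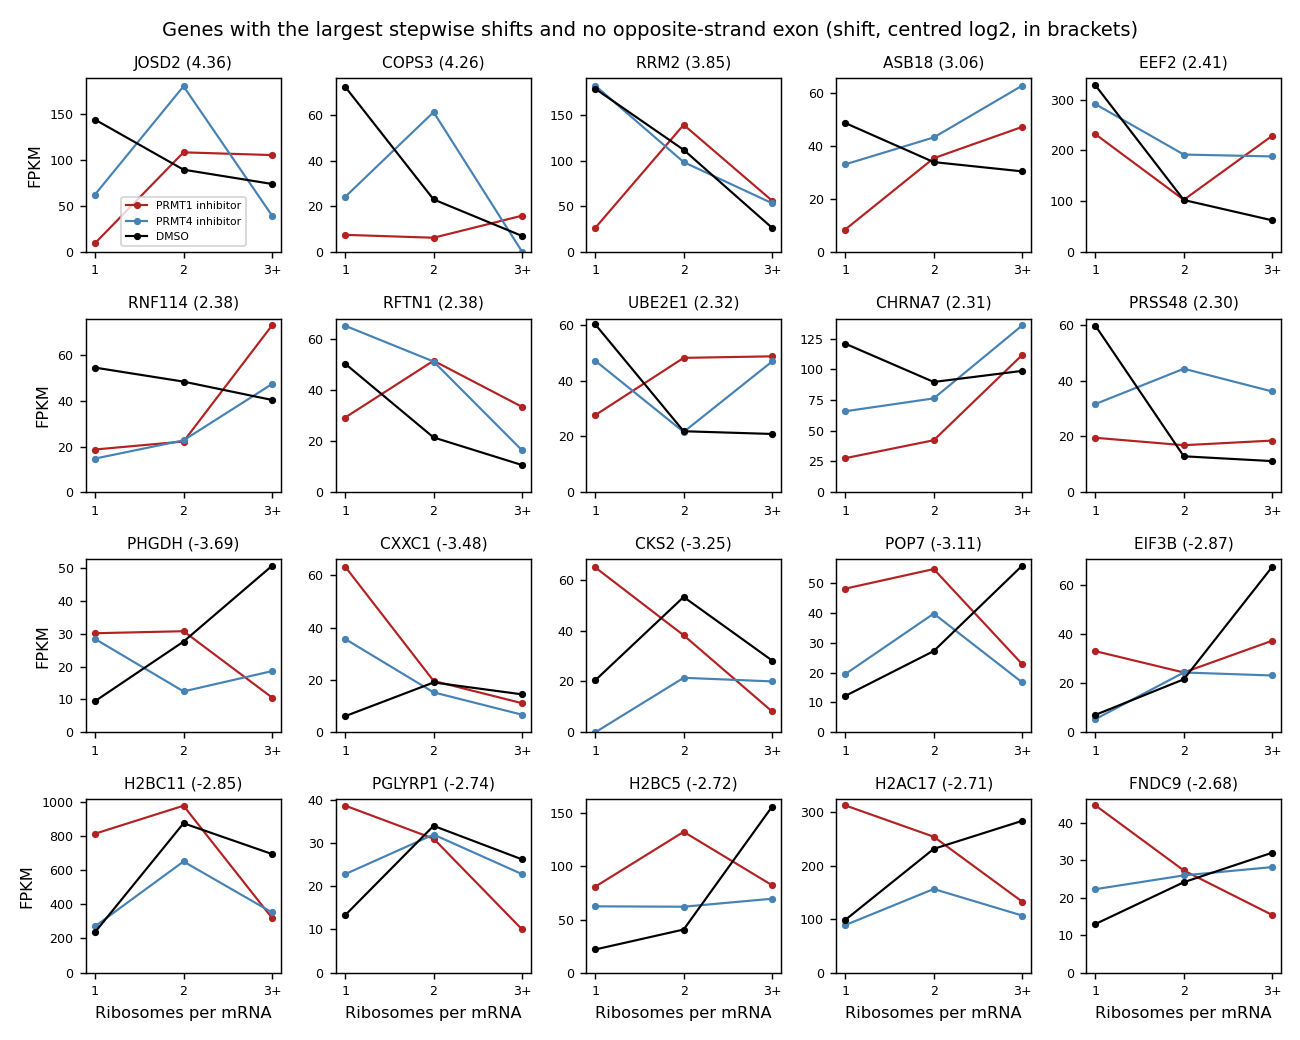
FPKM (y axis, from 0 in each panel) against ribosomes per mRNA (x axis) for the 10 genes with the largest stepwise shifts toward 3 or more ribosomes (upper panels) and the 10 toward 1 ribosome (lower panels), 1 library per point. The 3 histone panels are those with the highest values among the lower ones, with H2BC11 at 812 FPKM with 1 ribosome under the PRMT1 inhibitor and 237 in DMSO.

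The largest shifts of all rested on values at or near 0. Toward 3 or more ribosomes the 8 genes were HIST2H2AA3, KLHL28, MT-ATP6, TIMM50, MT-ATP8, ZNF394, EVL and PAFAH1B3, and all but EVL had a library of the 4 at 0, so that no fold is given for them. KLHL28 (opposite TOGARAM1) was listed at 15, 43.2 and 52.2 FPKM with 1, 2 and 3 or more ribosomes under the PRMT1 inhibitor and at 46.4, 4.39 and 0 in DMSO. TIMM50, a subunit of the mitochondrial import machinery, was listed at 0, 55.1 and 47.2 FPKM, against 32.4, 17 and 21.7 in DMSO. ZNF394 (opposite ZNF789) was at 0, and PAFAH1B3 (opposite PRR19) was at 0, with 1 ribosome under the PRMT1 inhibitor, against 55.7 and 4.37 FPKM in DMSO. EVL, an actin regulator opposite DEGS2, was listed at 12.7, 6.37 and 66.8 FPKM, against 63.6, 28.8 and 5.79 in DMSO, with a shift of 5.59 ± 0.70 that no single library carried. It was low at the light end under the inhibitor and low at the heavy end in DMSO.

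Toward 1 ribosome the 8 were MT-ND4L, SMIM39, H2AC13, ALPK1, MT-CO2, TEX54, ZRSR2P1 and SLX1A, and all but SLX1A had a library at 0. SMIM39 was listed at 181, 79.9 and 0 FPKM with 1, 2 and 3 or more ribosomes under the PRMT1 inhibitor and at 0 in all 3 DMSO and all 3 PRMT4 inhibitor fractions. TEX54 was listed at 131, 36.9 and 0 FPKM, against 67.6, 47.2 and 33.4 in DMSO, and ALPK1, a kinase opposite TIFA, at 38.8, 22.8 and 0 FPKM, against 12.2, 0.93 and 24.1 in DMSO. For both, the library at 0 was that of the PRMT1 inhibitor with 3 or more ribosomes. ZRSR2P1 (opposite REEP5) was at 0 with 3 or more ribosomes under both treatments, and SLX1A, a nuclease subunit opposite BOLA2B, was listed at 88.5, 76.5 and 40.3 FPKM, against 3.50, 88.2 and 129 in DMSO. The single low DMSO value, an estimated 1.74 fragments, carried the shift of -5.93.

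Ribosomal proteins, whose mRNAs start with a terminal oligopyrimidine (TOP) tract that ties their translation to growth signals, lay on both sides of 0. Of 39 large-subunit genes 7 (17.9%) were at least 2-fold toward 3 or more ribosomes and 6 (15.4%) toward 1, with a median of 0.23, and of 30 small-subunit genes 5 and 3 were, with a median of -0.14. These shares were near those of all genes analysed. RPL13 was listed at 651, 703 and 576 FPKM with 1, 2 and 3 or more ribosomes under the PRMT1 inhibitor, against 751, 577 and 611 in DMSO, and its shift was 0.16. RPL10 (opposite DNASE1L1) was listed at 647, 462 and 492 FPKM, against 593, 425 and 232 in DMSO, and differed at the heavy end alone, a shift of 0.99. RPL35 (opposite WDR38) had a shift of -0.63.

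In the small subunit, RACK1, a signalling scaffold (opposite CTC-338M12.4), had values of 1012, 873 and 315 FPKM, against 921, 761 and 326 in DMSO, and RPS15 of 571, 527 and 356 FPKM, against 379, 451 and 285 in DMSO. Both declined toward the heavy end under either treatment apart from the 2-ribosome value of RPS15 in DMSO, and their shifts were -0.15 and -0.23. RPS13 and RPS2 had shifts of 0.72 and 0.092. Over 18 other TOP mRNAs the median was -0.12. Of these, 3 lay at least 2-fold toward 3 or more and 2 toward 1, against 13.6% and 15.9% of all genes analysed. TKT, transketolase, was listed at 868, 1481 and 913 FPKM, against 973, 1423 and 806 in DMSO, and peaked with 2 ribosomes under both treatments, with a shift of 0.38. IMPDH2, an enzyme of guanine nucleotide synthesis opposite ENSG00000272434, had a shift of -0.41.

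Translation factors were shifted both ways as well. Of 16 initiation factor genes 4 lay at least 2-fold toward 3 or more ribosomes and 5 toward 1 (median -0.31), against 13.6% and 15.9% of all genes analysed, and of 6 elongation and termination factors 1 lay each way (median -0.41). EIF5A (opposite GPS2), which helps peptide bonds form at prolines, was listed at 65.4, 92.3 and 277 FPKM with 1, 2 and 3 or more ribosomes under the PRMT1 inhibitor, against 32.9, 99.6 and 265 in DMSO. It climbed under both treatments, with a shift of -0.87 carried by the PRMT1 inhibitor library with 1 ribosome. EIF4G2 (opposite CTR9) had 1.78, EIF4E2 (opposite ENSG00000237126) -1.05 and EIF3F 1.65. EEF1D (opposite ENSG00000279605), a subunit of elongation factor 1, was listed at 402, 405 and 775 FPKM, against 306, 415 and 605 in DMSO, a shift of 0.0014, and EEF1G, another subunit, had 0.34. Of 5 aminoacyl-tRNA synthetases (median -0.49) 1 (20%) lay at least 2-fold toward 1 ribosome, against 15.9% of all genes analysed, and none toward 3 or more. Of 10 ribosome biogenesis factors (median -0.04) 2 (20%) lay toward 3 or more, against 13.6%, and none toward 1. Both lists are small.

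RNA-binding proteins with glycine- and arginine-rich motifs, which include known PRMT1 substrates, had a median of -0.01 over 8 genes. Of the 8, 2 lay at least 2-fold toward 1 ribosome and none toward 3 or more. Here and for the lists below, 15.9% and 13.6% of all genes analysed lay that far toward 1 and toward 3 or more. CIRBP, a cold-inducible RNA-binding protein opposite CIRBP-AS1, was listed at 1006, 917 and 944 FPKM with 1, 2 and 3 or more ribosomes under the PRMT1 inhibitor, against 1037, 744 and 886 in DMSO. The ends were near each other in both treatments, and the shift was 0.17. HNRNPU (opposite COX20), HNRNPA1 and RPS2 had 0.26, -0.10 and 0.092. Over 13 hnRNP and SR proteins, which bind nascent RNA and act in splicing, the median was -0.10, with 3 toward 3 or more ribosomes and 2 toward 1. SRSF9 (opposite GATC), SRSF1 (opposite ENSG00000279069) and SRRM2 (opposite ELOB) had -0.11, -0.25 and 2.39. RNA helicases had a median of 0.32 over 9 genes, with 3 toward 3 or more and 1 toward 1, the last being DDX5 (opposite CEP95) at -1.06.

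The arginine methyltransferases were mostly low. PRMT1 itself, opposite ENSG00000268677, averaged 18.1 FPKM, under the minimum, and was listed at 6.73, 22.5 and 17.4 FPKM with 1, 2 and 3 or more ribosomes under the PRMT1 inhibitor, against 28.3, 22.7 and 31.4 in DMSO. It was lower with 1 and with 3 or more ribosomes under the inhibitor and near DMSO with 2, and since an inhibitor acts on the protein, the mRNA checks no label. CARM1, which encodes PRMT4 and lies opposite YIPF2, was listed at 148, 154 and 89.7 FPKM, against 142, 129 and 84.9 in DMSO, a shift of 0.063. PRMT6 was listed at 50.4, 54.5 and 22.4 FPKM, against 47.6, 66.4 and 28.8 in DMSO, a shift of -0.39. PRMT2, PRMT3, PRMT5, PRMT7 and PRMT9 averaged 1.41 to 9.90 FPKM and were at 0 in 1 or more of the 6 libraries.

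Mitochondrially encoded mRNAs, which mitochondrial and not cytosolic ribosomes translate, lay far out on both sides. Of 13, 6 (46.2%) were shifted at least 2-fold toward 1 ribosome and 4 (30.8%) toward 3 or more, against 15.9% and 13.6% of all genes analysed, with a median of -0.11, and 6 had a library of the 4 at 0. MT-CYB, of complex III, was listed at 325, 177 and 38.4 FPKM with 1, 2 and 3 or more ribosomes under the PRMT1 inhibitor, against 267, 208 and 86.7 in DMSO. It declined along both gradients and more steeply under the inhibitor, a shift of -1.40 ± 0.41. MT-ND5, of complex I, was listed at 253, 165 and 49.2 FPKM, against 282, 174 and 50.6 in DMSO, and MT-CO1, of complex IV, at 139.7, 74.9 and 53.3, against 203, 64.2 and 37.6. Their shifts were 0.16 and 1.07. MT-ND6 was listed at 26.7, 23.5 and 0 FPKM, against 70.5, 42.2 and 14.9 in DMSO and 8280 FPKM in the PRMT4 inhibitor library with 1 ribosome.

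Nuclear-encoded respiratory chain subunits and mitochondrial ribosomal proteins held members shifted each way. At least 2-fold, 13.6% of all genes analysed lay toward 3 or more ribosomes and 15.9% toward 1. Complex I subunits (10 genes) had a median of -0.07, with 2 toward 3 or more ribosomes and 3 toward 1, subunits of complexes II to V (13 genes) 0.11, with 1 and 3, and mitochondrial ribosomal proteins (14 genes) -0.36, with 1 and 3. The median of complexes II to V was -0.36 at a minimum mean of 5 FPKM and -0.76 at 50 FPKM. ATP5MF, an ATP synthase subunit, was listed at 154, 204 and 195 FPKM with 1, 2 and 3 or more ribosomes under the PRMT1 inhibitor, against 81.8, 217 and 182 in DMSO. It differed at the light end alone, a shift of -0.77 carried by the PRMT1 inhibitor library with 1 ribosome. MRPL51, opposite NCAPD2, was listed at 323, 446 and 712 FPKM, against 179, 452 and 734 in DMSO, and like ATP5MF was higher with 1 ribosome under the inhibitor, a shift of -0.85. COX7C, of complex IV, was listed at 181, 89.3 and 144 FPKM, against 38.2, 89.0 and 142 in DMSO, with the other fractions close and the light end apart, a shift of -2.15 carried by the same library. NDUFB2 (opposite BRAF), of complex I, had 0.89.

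NRF2 targets and ferritin, which answer to oxidative stress and iron, had the highest list median, 0.68 over 6 genes. All 6 lay above 0, which centring makes the median over all genes analysed. Of the 6, 2 lay at least 2-fold toward 3 or more ribosomes, against 13.6% of all genes analysed. FTH1, the ferritin heavy chain opposite BEST1, was listed at 15, 52.9 and 61.7 FPKM with 1, 2 and 3 or more ribosomes under the PRMT1 inhibitor, against 52.0, 30.8 and 37.3 in DMSO. It was low with 1 ribosome under the inhibitor and higher in the other fractions, a shift of 2.48 carried by the PRMT1 inhibitor library with 1 ribosome. TXN, thioredoxin, was listed at 13.9, 51.6 and 81.9 FPKM, against 21.1, 31.8 and 46.7 in DMSO, a shift of 1.40. SQSTM1 (opposite MRNIP), TALDO1 and PRDX1 (opposite MMACHC) had 0.54, 0.64 and 0.71, under 2-fold. With 2 ribosomes in place of 1 as the light end the list's median was -0.014, so that its place rested on the libraries with 1 ribosome.

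Chaperones had a median of -0.60 over 9 genes, with 2 at least 2-fold toward 1 ribosome and 1 toward 3 or more. The shares over all genes analysed were 15.9% and 13.6%. STUB1, a ubiquitin ligase of the chaperone system opposite JMJD8, was listed at 3514, 1787 and 799.8 FPKM with 1, 2 and 3 or more ribosomes under the PRMT1 inhibitor, against 2265, 1561 and 1022 in DMSO. It declined along both gradients, from a higher light end and to a lower heavy end under the inhibitor, a shift of -0.95. HSPA8, a constitutive member of the HSP70 family, was listed at 215, 125 and 59.5 FPKM, against 154, 85.0 and 66.1 in DMSO, and STIP1, an HSP70 and HSP90 co-chaperone, at 157, 133 and 53.6, against 89.8, 118 and 90.3. Their shifts were -0.59 and -1.50. TRAP1 (opposite DNASE1) had -0.60. Against the PRMT4 inhibitor in place of DMSO the list's median was 0.059.

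The other lists had medians between -0.46 and 0.38, and their counts stand against 15.9% of all genes analysed toward 1 ribosome and 13.6% toward 3 or more. Proteasome subunits (7 genes, median -0.35) had 3 (42.9%) toward 1 ribosome and none toward 3 or more, and their median was 0.57 at a minimum mean of 5 FPKM. Toward 1 ribosome and toward 3 or more, glycolytic enzymes (14, -0.23) and actin, tubulin and actin-binding genes (12, -0.12) had 2 and none each, and secretory genes of the endoplasmic reticulum (9, -0.28) 2 and none. Immediate early and MYC-family genes (7, -0.10) and p53 targets (6, -0.46) had 2 each way, ubiquitin and ubiquitin-like genes (12, -0.07) 3 each way, and cholesterol synthesis genes (5, 0.38) 2 toward 1 and 1 toward 3 or more. MYC, the growth-promoting transcription factor, was listed at 24.1, 21.7 and 101 FPKM with 1, 2 and 3 or more ribosomes under the PRMT1 inhibitor, against 31.5, 18.9 and 53.9 in DMSO. Its heavy end was the highest value, a shift of 1.30 carried by the PRMT1 inhibitor library with 3 or more ribosomes. PSMA3, a core proteasome subunit, and PSMD1 (opposite HTR2B), of its regulatory cap, had 0.73 and -1.53. PFKM (opposite SENP1) and ALDOA (opposite ENSG00000274904), of glycolysis, had -0.073 and -0.20, and KRT8 (opposite KRT18) and PFN1 (opposite ENO3), of the cytoskeleton, -0.21 and -0.17. Spliceosomal, stress-response and mitosis genes had fewer than 5 members analysed (4, 4 and 3) and are not summarised.

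**Figure D5:**
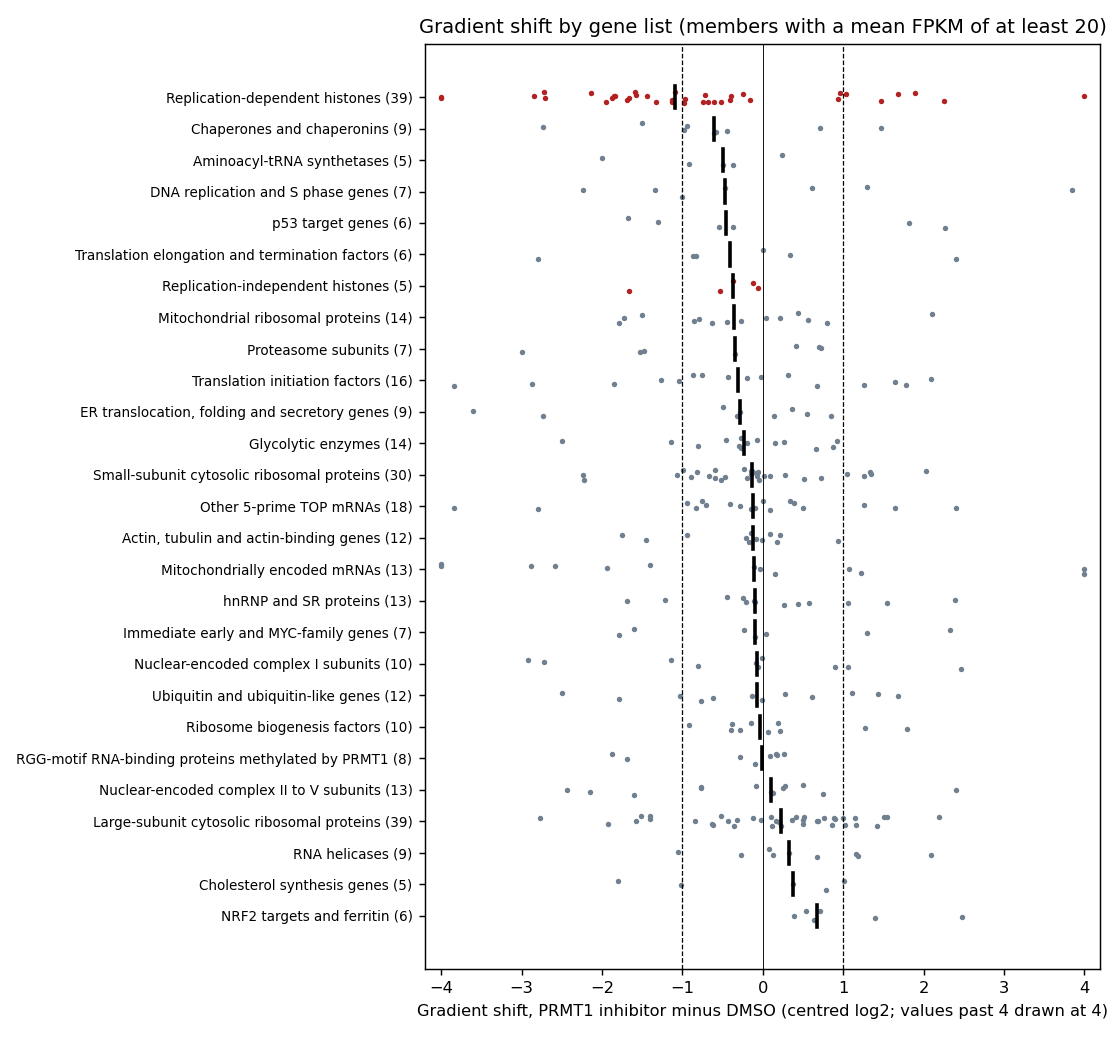
Gradient shift (x axis, centred log2, PRMT1 inhibitor minus DMSO, values past 4 drawn at the edge) of each member (points) of the lists with at least 5 members analysed (y axis, number analysed in brackets), with the list median as a black bar and 2-fold as dashed lines. The replication-dependent histones have the lowest median, -1.10, and the NRF2 targets and ferritin the highest, 0.68.

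Across all genes analysed, the Spearman correlation of the shift with transcript length was 0.08 and with coding length 0.06. From the shortest to the longest transcripts, in 4 groups of 629 to 634 genes, the median shift was -0.087, -0.038, 0.023 and 0.097, and 136 of the 634 shortest and 76 of the 632 longest were shifted at least 2-fold toward 1 ribosome. By coding length 19.7% of the shortest and 13.1% of the longest were. Genes are not independent replicates, and they share the 4 libraries. Among the 649 genes with the lowest means, 112 were at least 2-fold toward 3 or more ribosomes and 165 toward 1, and among the 649 with the highest means 31 and 56, so that called genes were fewer at higher values. Genes with an exon on the opposite strand had an SD of 1.08 (log2) and those without 1.56, and 13.5% and 20.8% of them were shifted at least 2-fold toward 1 ribosome.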

How the data were processed

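FPKM values per gene, rounded to 2 decimals, were deposited by the authors in 1 table of 12 libraries, 1 per group. The submitters' processing notes name cutadapt 1.18, STAR 2.5.3a, RSEM and GRCh37. The columns R1, R2 and R3 were read as 1, 2 and 3 or more ribosomes, and every value rests on that reading.

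From the deposited FPKM, the gradient shift was computed on the log2(FPKM + 1) scale, which understates the difference of low genes, for genes with a mean of at least 20 FPKM, and centred on the median, in Python 3.11.15 with pandas 2.3.3. Fragments were estimated from FPKM steps of genes with 1 transcript (91.3 to 95.6% of values whole within 0.06), and counting errors follow from them and cover counting only. Symbols, lengths, opposite-strand exons (bedtools 2.31.1) and stem-loops came from GENCODE 29 on GRCh38, with no coordinates given.

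Named genes were the 8 highest and 8 lowest shifts, the 10 highest and 10 lowest stepwise ones, up to 4 members with the highest means in each list described, and the PRMT genes. Other histones, NCAPD2, MED16, MYC, EEF1G, COX7C and a few further members were named with their values known. The genes and the 32 lists were chosen with earlier results of these data known, and the replication-independent histones were added later. A few genes that these rules name are not reported here. Inputs were used for the mean alone. The steps were checked on simulated data.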

Additional observations from a re-analysis of the deposited data

How the results depend on the processing

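No paired analysis was possible because each group has 1 library and the labels carry no replicate numbers. Counts of genes shifted at least 2-fold moved with the minimum. They were 1246 toward 3 or more ribosomes and 1396 toward 1 at a mean of at least 5 FPKM, 107 and 133 at 50 FPKM, 3492 and 3773 with no minimum, and 148 and 171 among genes with no opposite-strand exon, where more or fewer genes were analysed. With 2 ribosomes as the light end 274 lay toward 1. Scaling libraries to 1 upper quartile without centring put the median at 0.11, a split of 408 toward 3 or more and 369 toward 1. The histone median was -0.47 with 2 ribosomes as the heavy end, -0.53 with 2 ribosomes as the light end and -0.72 against the PRMT4 inhibitor, and the number of histones toward 1 ribosome was 9 with 2 ribosomes at either end. The cause was not tested. The histone median lay below 0 under every alternative run.

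Of 26 other list medians, 14 kept their direction with 2 ribosomes as the light end, 18 with 2 ribosomes as the heavy end, 15 against the PRMT4 inhibitor and 20 at a mean of at least 5 FPKM. Cholesterol synthesis genes were at -0.58 and p53 targets at 0.13 with 2 ribosomes as the light end, large-subunit ribosomal proteins at -0.15 with 2 ribosomes as the heavy end, p53 targets at 0.76 against the PRMT4 inhibitor and proteasome subunits at 0.57 at a mean of at least 5 FPKM. The shifts of single genes that turned direction are values only. With 2 ribosomes as the light end, the NRF2 list had a median of -0.014, HIST2H2AA3 was at -1.49, TIMM50 at -0.57, ZNF394 at -1.21 and MT-ND4L at 0.47. With 2 ribosomes as the heavy end MT-ATP8 was at -0.026 and ALPK1 at 2.09. Against the PRMT4 inhibitor, chaperones were at 0.059, KLHL28 at -0.085, MT-CO2 at 1.76, ZRSR2P1 at 0.84, PRSS48 at -0.075, CXXC1 at 0.024 and H2BC5 at 0.054. Other pseudocounts turned none of the 36 named shifts. With the mean of the treatments in place of the middle one, a single library carried 59.9% of called shifts, against 82.2%. Counting alone gives an error of 0.38 at the median, which limits single genes.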
